A study of Rattus norvegicus with 27 samples.

Results

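Il6, Il1b, Ccl2, Cxcl1 and Ptgs2 are 5 genes of the inflammatory response, chosen by their Ensembl rat gene IDs (ENSRNOG00000010278, ENSRNOG00000004649, ENSRNOG00000007159, ENSRNOG00000002802 and ENSRNOG00000002525) from the 32753 IDs of a table of raw read counts. All 5 were among the 14258 genes with enough reads to be tested. The table holds 27 RNA-seq libraries of primary rat lung fibroblasts (strain label Sprague-Dawley), which were sorted on beads for CD90, a surface antigen of fibroblasts and of some other cells. The column names of all 27 carry the tags Non, MonoCulture and WT. The cells were cultured on plastic or on PDMS (polydimethylsiloxane), a silicone rubber with a labelled stiffness of 3 to 5 kPa; both surfaces carried rat tail collagen I applied at 38 µg/ml, and the medium was MucilAir. The PDMS groups are days 2, 4, 7 and 14 with 4 libraries each, and the plastic groups are days 4 and 14 with 4 libraries each and day 7 with 3. Day 2 was measured on PDMS only, so no change from day 2 can be followed on plastic.

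The 5 genes encode signals of the response to injury, microbes or other cytokines, or in the case of Ptgs2 an enzyme that helps make such signals. Il6 encodes interleukin 6, a cytokine that acts through STAT3, and Il1b encodes interleukin 1 beta, an early cytokine made mainly by myeloid cells, which induces many of the others. Ccl2 and Cxcl1 encode chemokines that draw monocytes and neutrophils, respectively, and Ptgs2 encodes cyclooxygenase 2, the inducible enzyme of prostaglandin synthesis. Transcription of these genes is commonly driven by NF-kappaB together with C/EBP, CREB and AP-1 factors, and lung fibroblasts are known to make interleukin 6, both chemokines and prostaglandin E2.

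The stretches just upstream of these genes are shown as a description. Whether their letters relate to the course of a gene over time was not tested. RefSeq (assembly GRCr8) gave a window of 250 bases before the annotated start for 4 of the 5 genes, Ccl2 being the other. Each is written 5′ to 3′ on the gene's strand, and capitals mark matches to the motifs named after them.
Il6: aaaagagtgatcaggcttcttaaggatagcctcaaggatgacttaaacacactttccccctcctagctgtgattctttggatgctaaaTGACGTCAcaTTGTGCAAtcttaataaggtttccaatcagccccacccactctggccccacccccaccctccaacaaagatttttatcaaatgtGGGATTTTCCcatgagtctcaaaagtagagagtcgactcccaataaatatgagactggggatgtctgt
Il1b: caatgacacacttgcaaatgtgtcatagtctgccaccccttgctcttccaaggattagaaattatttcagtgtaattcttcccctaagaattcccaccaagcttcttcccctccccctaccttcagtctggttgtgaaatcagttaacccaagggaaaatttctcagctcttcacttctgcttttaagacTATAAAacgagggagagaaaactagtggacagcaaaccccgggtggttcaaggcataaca
Cxcl1: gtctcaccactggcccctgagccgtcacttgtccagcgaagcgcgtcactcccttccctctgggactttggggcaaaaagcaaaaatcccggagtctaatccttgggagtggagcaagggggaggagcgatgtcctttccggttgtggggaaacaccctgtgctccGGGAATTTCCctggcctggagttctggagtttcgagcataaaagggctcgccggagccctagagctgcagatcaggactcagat
Ptgs2: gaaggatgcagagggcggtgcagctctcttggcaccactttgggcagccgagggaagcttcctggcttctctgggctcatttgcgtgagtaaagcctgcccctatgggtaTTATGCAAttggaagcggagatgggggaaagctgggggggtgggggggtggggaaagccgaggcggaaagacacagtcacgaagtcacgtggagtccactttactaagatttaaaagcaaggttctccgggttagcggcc
In that assembly the windows lie at chr4:5894576-5894825 for Il6, chr3:137036582-137036831 for Il1b and chr14:17479322-17479571 for Cxcl1, all on the minus strand, and at chr13:64713813-64714062 on the plus strand for Ptgs2. Both strands were searched for GGGANTTTCC (kappaB), TGACGTCA (CRE, bound by CREB), TTNNGCAA (C/EBP) and TGANTCA (AP-1). The TATA box was searched for as TATAAA. These motifs were picked after the windows had been read.

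The Il6 window held a kappaB match, GGGATTTTCC, at 68 to 59 bases before the start. It also held a CRE match, TGACGTCA, at 162 to 155 bases and a C/EBP match, TTGTGCAA, at 152 to 145 bases. The Cxcl1 window held a kappaB match, GGGAATTTCC, at 84 to 75 bases before the start. The Ptgs2 window held a C/EBP match, TTATGCAA, at 140 to 133 bases, and the Il1b window a TATAAA at 60 to 55 bases. No 2 of the printed matches share a base. Of 33469 rat windows of the same length, 0.314% held the kappaB letters, 1.59% the CRE, 9.22% the C/EBP, 6.34% the AP-1 and 12.9% the TATA box letters. A match describes the letters, and a missing match says only that those letters are not in this window.

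Total counts ran from 17.3 to 25.3 M (mega) per library. Within groups, Plastic day 4 replicates 1 and 2 and Plastic day 14 replicates 2 and 3 were unusually alike. Their counts differed by a chi-square per degree of freedom of 7.7 and 8.1, above counting noise but below the 32.1 or more of the other pairs of a group. This does not show that they came from separate cultures. They were counted separately, as the labels list them, and were summed in an alternative. Plastic day 4 replicate 3, Plastic day 7 replicate 3, Plastic day 14 replicate 4 and PDMS day 14 replicate 3 deviated from their groups in a shared way (pairwise r of 0.37 to 0.76 over the tested genes), and results were also computed without these 4. The files do not pair gene IDs with names, so the fibroblast label, markers of other cell types and the wider pathway lists could not be checked by name. The labels do not say which animal or culture a library came from, so the p-values below measure the spread between libraries, part of which may be technical.

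Levels are given as counts per M mapped to genes after scaling (CPM) and are compared within a gene only, since transcript lengths were not at hand. In bulk RNA, fewer cells that make a transcript and less of it per cell cannot be told apart.

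Il6 was highest at PDMS day 2, and its group mean on PDMS was lower at each later day. In replicates 1 to 4 it stood at 1.46, 3.18, 2.44 and 1.81 CPM at PDMS day 2, at 0.568, 0.863, 0.936 and 0.537 CPM at day 4, at 0.316, 0.586, 0.319 and 0.529 CPM at day 7, and at 0.164, 0.423, 0.0505 and 0.170 CPM at day 14. The day 2 libraries all lay above those of day 4, and the day 4 libraries all lay above those of day 14. From day 2 to day 14 Il6 fell 10.6-fold on PDMS, a log2 change of -3.41 ± 0.58 (SE) with an adjusted p of 9.076e-05. Of this, the step from day 2 to day 4 was -1.60 ± 0.52 (adjusted p = 0.05176, just short of the 0.05 threshold). The steps from day 4 to day 7 (-0.74 ± 0.54, adjusted p = 0.6766) and from day 7 to day 14 (-1.06 ± 0.58, adjusted p = 0.2416) were not called. In both of these the groups overlapped.

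On plastic, where day 2 was not measured, Il6 had no called change between days. It stood at 0.840, 0.956, 0.268 and 1.61 CPM at Plastic day 4, at 0.980, 0.245 and 0.632 CPM in replicates 1, 3 and 4 of day 7, and at 1.28, 2.13, 2.22 and 0.538 CPM at day 14. The 3 plastic days overlapped, and the lowest library of each belonged to the 4 that deviate alike. Day 14 against day 4 was 0.75 ± 0.52 on the log2 scale (adjusted p = 0.2718). A difference of this change from that on PDMS was not called (edgeR interaction, adjusted p = 0.6402). The group order of Il6 was PDMS day 2, Plastic day 14, Plastic day 4, PDMS day 4, Plastic day 7, PDMS day 7 and PDMS day 14, and every neighbouring pair in it overlapped. Il6 counts were small, from 1 to 65 reads, with 7 libraries under 10.

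Il1b had more than 10 reads in each library of PDMS day 2 and in 1 library of the other groups. Its counts at PDMS day 2 were 190, 12, 32 and 19 reads, or 7.72, 0.586, 1.53 and 0.903 CPM. At PDMS day 4 they were 7, 17, 1 and 1, at PDMS day 7 they were 5, 1, 3 and 0, and at PDMS day 14 they were 0, 0, 2 and 0. Replicate 1 of day 2 stood far above the other 3, and replicate 2 of day 4 exceeded replicate 2 of day 2, so those 2 days overlapped.

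Plastic libraries held hardly any Il1b reads: 0, 0, 5 and 1 at day 4, 1, 0 and 1 at day 7, and 0, 2, 1 and 0 at day 14. A count of 0, seen in 9 of the 27 libraries, allows a level of up to 0.123 to 0.161 CPM (3 reads). Summed over each group's libraries, Il1b held 253 reads at PDMS day 2 (2.91 CPM, exact 95% Poisson interval 2.56 to 3.29, counting error only) and 2 reads at PDMS day 14 (0.0219 CPM, 0.00265 to 0.0790). The ratio of these sums was 133 (36.5 to 1105), and without replicate 1 of day 2 it was 46.2 (12.3 to 389.7). These intervals too hold counting error only and leave out the spread between libraries.

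By edgeR, Il1b had a log2 change of -6.58 ± 1.28 from PDMS day 2 to day 14 (adjusted p = 0.000305), a fitted value that depends on how zeros are handled. Il1b had enough reads to be tested only through the PDMS day 2 libraries, where it was highest. Its tests against that group are therefore no separate support for a fall. The change from day 2 to day 4 was -3.21 ± 0.97 (adjusted p = 0.04137), and without replicate 1 of day 2 it was -1.77 (adjusted p = 0.2955). Over all libraries of the 2 groups left out in turn, the call was lost in 5 of 8 fits. From day 4 to day 14 the change was -3.37 ± 1.34 (adjusted p = 0.06228). At day 4, Il1b held 26 reads on PDMS, 17 of them in replicate 2, and 6 reads on plastic, with a log2 difference of 2.00 ± 1.16 (adjusted p = 0.6961). For the 6 comparisons in which both groups averaged 3 reads or fewer, no fold is given. In the group order only PDMS day 2 and PDMS day 4 averaged above that floor, and every neighbouring pair overlapped.

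Ccl2 fell on PDMS, and its group mean was lower at each later day. It stood at 352.5, 633.6, 296.6 and 227.8 CPM at PDMS day 2, at 113.4, 294.6, 114.2 and 110.5 CPM at day 4, at 54.1, 49.4, 20.3 and 43.6 CPM at day 7, and at 9.24, 28.0, 11.2 and 12.2 CPM at day 14. Replicate 2 of day 4 reached into the day 2 range, days 4 and 7 did not overlap, and replicate 2 of day 14 reached into the day 7 range. Ccl2 fell 24.9-fold from day 2 to day 14 (log2 change -4.64 ± 0.65, adjusted p = 1.727e-05). Most of this came after day 4: the change from day 2 to day 4 was -1.26 ± 0.57 (adjusted p = 0.1514), and from day 4 to day 14 it was -3.38 ± 0.62 (adjusted p = 0.00157). The split was less uneven without PDMS day 4 replicate 2, at -1.74 and -2.85.

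Ccl2 was also the member that fell on plastic. It stood at 222.6, 168.2, 122.9 and 135.2 CPM at Plastic day 4, at 65.1, 15.6 and 101.1 CPM at day 7, and at 57.5, 64.6, 70.9 and 7.47 CPM at day 14. All day 4 libraries lay above those of days 7 and 14. The change from day 4 to day 14 was -1.69 ± 0.58 (adjusted p = 0.02899). The call was lost without Plastic day 4 replicate 1 or 2 or Plastic day 14 replicate 4, with log2 changes of -1.91 to -1.33 over all libraries left out in turn (adjusted p up to 0.08949). It was also lost when the closely alike plastic libraries were summed (-1.77, adjusted p = 0.07872) and in a fit of these 2 groups alone (-1.67, adjusted p = 0.08105). The group order was PDMS day 2, Plastic day 4, PDMS day 4, Plastic day 7, Plastic day 14, PDMS day 7 and PDMS day 14, and of the neighbours only PDMS day 2 against Plastic day 4 and PDMS day 4 against Plastic day 7 were free of overlap.

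Cxcl1 fell between days 2 and 4 on PDMS, with smaller differences between the later days. It stood at 164.8, 126.8, 224.6 and 198.4 CPM at PDMS day 2, at 15.7, 32.1, 14.9 and 20.03 CPM at day 4, at 12.6, 22.6, 5.54 and 22.4 CPM at day 7, and at 9.53, 12.5, 3.94 and 12.04 CPM at day 14. Day 2 lay far above every other group, while days 4 and 7 and days 7 and 14 overlapped. Cxcl1 fell 8.63-fold between days 2 and 4 (log2 change -3.11 ± 0.56, adjusted p = 0.007886). From day 4 to day 14 its change was -1.12 ± 0.53 (adjusted p = 0.1104), although the 2 groups did not overlap, and from day 2 to day 14 it was -4.23 ± 0.59 (adjusted p = 1.565e-05).

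On plastic, Cxcl1 stood at 23.6, 16.1, 15.7 and 21.3 CPM at day 4, at 7.08, 6.36 and 16.7 CPM at day 7, and at 18.8, 38.1, 39.2 and 3.49 CPM at day 14. At day 14, replicates 2 and 3, the closely alike pair, were the highest of the plastic libraries and replicate 4 was the lowest. Day 14 against day 4 was 0.38 ± 0.52 on the log2 scale (adjusted p = 0.6034). The group order was PDMS day 2, Plastic day 14, PDMS day 4, Plastic day 4, PDMS day 7, Plastic day 7 and PDMS day 14, and only PDMS day 2 was free of overlap with its neighbour. Near-identical chemokine genes may share reads with Cxcl1, since the counting rule is not given in the sources used here.

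Ptgs2 had the smallest fitted fall of the 5 on PDMS between days 2 and 14. It stood at 14.8, 52.9, 33.6 and 27.6 CPM at PDMS day 2, at 12.8, 55.5, 6.64 and 10.1 CPM at day 4, at 8.73, 13.9, 4.27 and 6.61 CPM at day 7, and at 4.82, 9.77, 5.45 and 5.72 CPM at day 14. Replicate 2 of day 4 was as high as the highest day 2 library, while the other 3 lay below all of day 2. Ptgs2 fell 4.99-fold from day 2 to day 14 (log2 change -2.32 ± 0.60, adjusted p = 0.003017), and those groups did not overlap.

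When the fall of Ptgs2 took place depended on PDMS day 4 replicate 2. With it, the change from day 2 to day 4 was -0.60 ± 0.57 (adjusted p = 0.526) and that from day 4 to day 14 was -1.72 ± 0.59 (adjusted p = 0.03414). Without it, the first was -1.71 (adjusted p = 0.04127) and the second -0.57 (adjusted p = 0.4112). On plastic, Ptgs2 stood at 35.8, 33.7, 14.9 and 32.3 CPM at day 4, at 17.3, 12.3 and 36.4 CPM at day 7, and at 24.6, 12.2, 15.0 and 5.11 CPM at day 14. All 3 plastic days overlapped, and day 14 against day 4 was -1.04 ± 0.58 (adjusted p = 0.1699). The group order was PDMS day 2, Plastic day 4, Plastic day 7, PDMS day 4, Plastic day 14, PDMS day 7 and PDMS day 14, with overlap between every neighbouring pair.

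**Figure D1:**
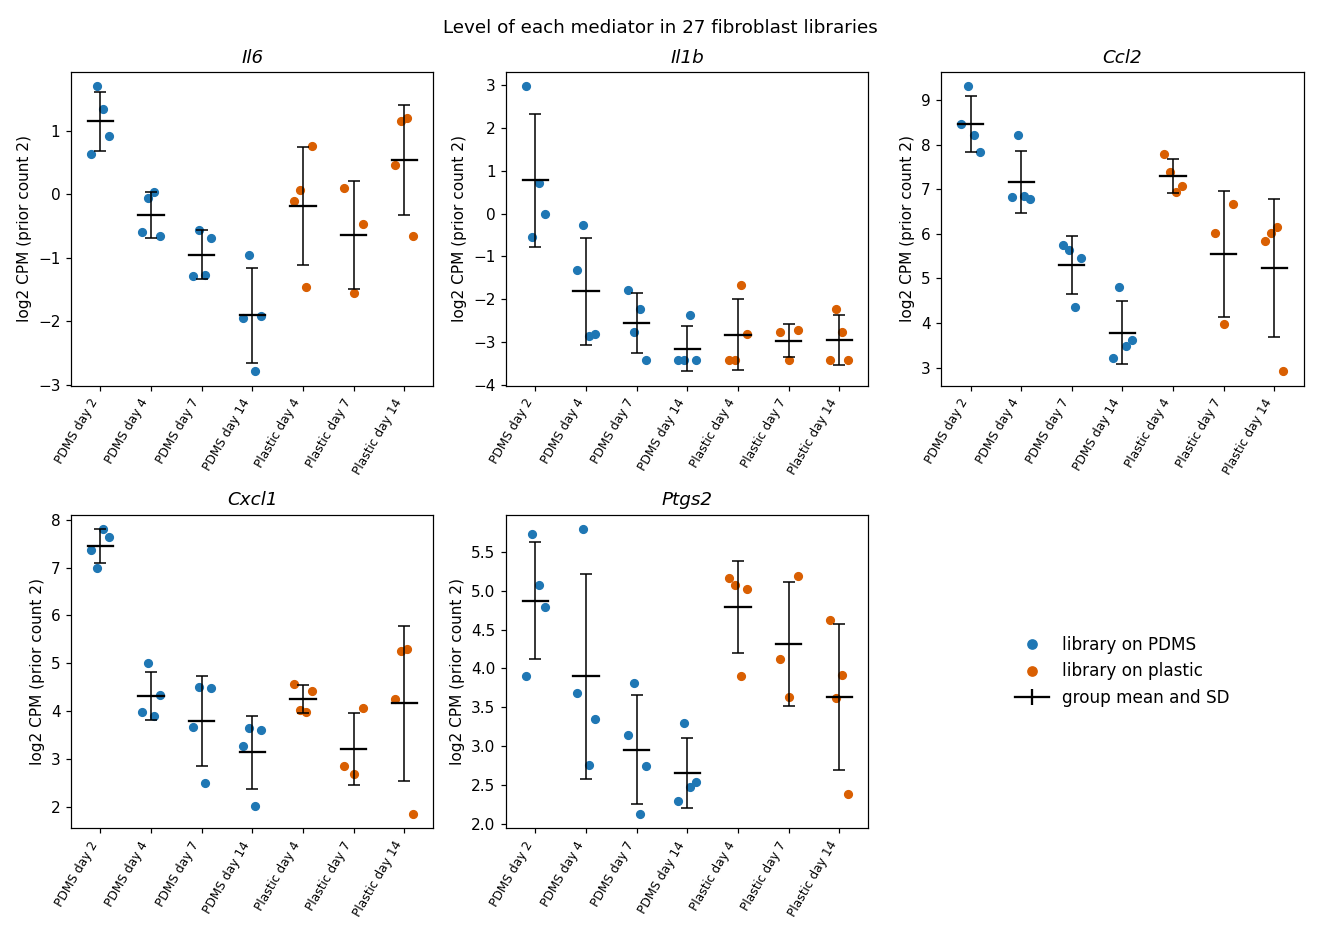
Level of each gene (y axis, log2 CPM with a prior count of 2) in each library (points, left to right by replicate number) of the 7 groups (x axis), with blue for PDMS, orange for plastic and black bars for the group mean and SD. PDMS day 2 has the highest mean for all 5 genes, Cxcl1 drops at once between PDMS days 2 and 4, and Plastic day 14 replicate 4 lies far below its group for Ccl2 and Cxcl1; the lowest Il1b points are libraries with 0 reads.

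Read as a group on PDMS, all 5 mediators fell from day 2 to day 14, with no overlap between the groups for any of them. Il1b was among the tested genes only through its PDMS day 2 reads, so it adds no separate support. Background calls were frequent in this comparison: 51.6% of the 14258 tested genes were called, 27.3% as lower, and 20.2% had all day 14 libraries below all day 2 libraries. With Il1b left aside, the log2 changes were -3.41 for Il6, -4.64 for Ccl2, -4.23 for Cxcl1 and -2.32 for Ptgs2, against a median of -0.05 over all tested genes. All 5 remained called under each of the other scalings, filters, tests and library choices that were run, where the calls on Il1b again add no separate support.

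The first step, day 4 against day 2 on PDMS, called 2 of the 5, the cytokine Il1b (tested only through its day 2 reads) and the chemokine Cxcl1, both lower. In it 10.0% of tested genes were called and 4.85% were called lower. Il6 and Cxcl1 had groups that did not overlap, as did 4.11% of genes in that direction. In this comparison same-numbered replicates deviated together, though some differently numbered pairs did so more. With the replicate number as a block (1687 genes called), Il6 was called (log2 change -1.57, adjusted p = 0.04873), Il1b was not (-3.02, adjusted p = 0.05608) and Cxcl1 was (-3.21, adjusted p = 0.00923). When the 8 libraries of these 2 groups were fitted alone, 0 genes were called by edgeR, and Cxcl1 had an adjusted p of 0.08226. DESeq2, limma-voom and both other scalings, on all libraries, called Il6, Il1b and Cxcl1.

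Day 7 against day 4 called 0 of 5 by edgeR (0.147% of genes). An unadjusted p under 0.05 was seen for 1708 of the 14258 genes and for 2 members, Ccl2 and Ptgs2. Ccl2 changed by -1.92 ± 0.58 there (adjusted p = 0.1446), and its groups did not overlap, which held for 6.74% of genes in that direction. DESeq2 called it (adjusted p = 0.02821), with 383 genes called against 21 by edgeR. Day 14 against day 7 called 0 of 5 (5.53% of genes), and DESeq2 called 0 members. Of the members Ccl2 alone had an unadjusted p under 0.05, as did 3819 of the 14258 genes.

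Over the longer span from day 4 to day 14 on PDMS, 3 of 5 were called, all lower: Il6 (log2 change -1.80 ± 0.57, adjusted p = 0.02404), Ccl2 and Ptgs2. In this comparison 28.6% of genes were called and 15.2% were called lower. Groups did not overlap for Il6, Ccl2 and Cxcl1, against 17.1% of genes in that direction. Ccl2 stayed called when each library was left out in turn. The call on Il6 was lost in 5 of 8 such fits, with log2 changes of -2.43 to -1.51 and an adjusted p of up to 0.07349. The call on Ptgs2 was lost in 4 of 8 such fits (adjusted p up to 0.4112), with limma-voom (-1.27, adjusted p = 0.1551), in the fit of the 2 groups alone (-1.72, adjusted p = 0.08262) and without the 4 libraries that deviate alike (-1.62, adjusted p = 0.05842). Il1b was called with DESeq2 (adjusted p = 0.04977, 4898 genes called) and without those 4 libraries (adjusted p = 0.03865, 3848 genes called). The day 4 to day 14 and day 2 to day 4 comparisons share the day 4 libraries.

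On plastic, 1 of 5, Ccl2, was called between days 4 and 14, where 32.6% of genes were called and 18.3% were called lower. Ccl2 was also the member whose groups did not overlap, against 14.3% of genes in that direction. Day 7 against day 4 called 0 of 5 by edgeR, as of all genes (0%). An unadjusted p under 0.05 was seen for 2665 of the 14258 genes and for 1 member, Ccl2 (log2 change -1.42 ± 0.63). Its groups did not overlap, as for 8.0% of genes in that direction. Day 14 against day 7 called 0 of 5 (0.0842% of genes). The 2 members with an unadjusted p under 0.05 there were Il6 and Cxcl1, each with a log2 change of 1.31 (SE 0.58 and 0.59). Such a p was seen for 2042 of the 14258 genes. DESeq2 called 0 members in either of these 2 comparisons.

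Between the substrates, Il6 was lower on PDMS than on plastic when days 4, 7 and 14 were averaged. The log2 difference was -1.24 ± 0.32, or 2.36-fold (adjusted p = 0.02428). The difference was uneven over the days: -0.33 ± 0.52 at day 4 (adjusted p = 0.985), -0.50 ± 0.59 at day 7 (adjusted p = 0.706) and -2.88 ± 0.58 at day 14 (adjusted p = 0.115). At day 7 it was -0.0019 without Plastic day 7 replicate 1. Of the 5 members 1 was called, with 7.04% of genes called and 5.41% called lower on PDMS. The call on Il6 was lost without Plastic day 7 replicate 1 (adjusted p = 0.08181), with limma-voom (0.08056) and when the closely alike plastic libraries were summed (0.06101); over all libraries left out in turn the difference stayed between -1.45 and -1.07. Ptgs2 was next, at -0.998 ± 0.342 (adjusted p = 0.08046). It was called with the replicate block (-1.26, adjusted p = 0.01736, 1039 genes called) and with DESeq2 (-1.01, adjusted p = 0.03199, 1539 genes called). It was also called without PDMS day 4 replicate 2 (-1.36, adjusted p = 0.01415, 790 genes called). Ccl2 differed by -0.76 ± 0.33 (adjusted p = 0.1792) and Cxcl1 by -0.21 ± 0.31 (adjusted p = 0.7431).

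Day by day, no member was called between the substrates by edgeR. At day 4 the call rate was 0 of 5 and 0% of genes, and 0 members had an unadjusted p under 0.05, against 1246 of the 14258 genes. The intervals there leave room for sizeable differences in either direction, such as -1.20 to 1.12 on the log2 scale for Ccl2 and -0.97 to 1.19 for Cxcl1. At day 7 the rate was 0 of 5 and 0.849% of genes. Ptgs2 stood at -1.40 ± 0.62 at day 7 (unadjusted p = 0.03403, adjusted p = 0.2373). An unadjusted p under 0.05 was seen there for 2532 of the 14258 genes. DESeq2 called 0 members on either day, and it gave no adjusted p for Il6 and Il1b at day 4.

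At day 14 the rate was again 0 of 5 and 0% of genes. An unadjusted p under 0.05 was seen for 3 members and for 1266 of the 14258 genes. The 4 members with enough reads for a fold were all fitted lower on PDMS. Il6 was 0.202 ± 0.157 CPM on PDMS and 1.54 ± 0.79 CPM on plastic (mean ± SD, n = 4 each), a log2 difference of -2.88 ± 0.58. All PDMS libraries lay below all plastic libraries for Il6, which held for 2.91% of genes in that direction. Its unadjusted p was 4.996e-05 and its adjusted p 0.115, where the smallest adjusted p of any gene was 0.05937. DESeq2 called it (-2.92, adjusted p = 0.001438, 113 genes called). It was called by edgeR without Plastic day 14 replicate 4 (-3.16, adjusted p = 0.01977, 88 genes called) or without PDMS day 14 replicate 2 (-3.50, adjusted p = 0.04427, 6 genes called). The same held without the 4 libraries that deviate alike (-2.87, adjusted p = 0.04018, 8 genes called). Il6 was not called in the other 6 of 8 fits with a library left out (adjusted p up to 0.4497), nor with limma-voom (0.09544), the replicate block (0.09084), the fit alone (0.353), the alike libraries summed (0.4046), no filter (0.1789), library size (0.06435) or DESeq2 size factors (0.1248).

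For the others at day 14, the log2 differences were -1.72 ± 0.58 for Ccl2, -1.39 ± 0.53 for Cxcl1 and -1.14 ± 0.58 for Ptgs2, with adjusted p of 0.3325, 0.4256 and 0.5809. Whether the change from day 4 to day 14 itself differed between PDMS and plastic was tested as an interaction, which called 0 of 5 members and 0% of genes. Il6 had an interaction of -2.55 ± 0.77 (unadjusted p = 0.003106, adjusted p = 0.6402) and Ccl2 one of -1.69 ± 0.80 (unadjusted p = 0.04677). An unadjusted p under 0.05 was seen for 971 of the 14258 genes. DESeq2 called 0 members in the interaction.

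**Figure D2:**
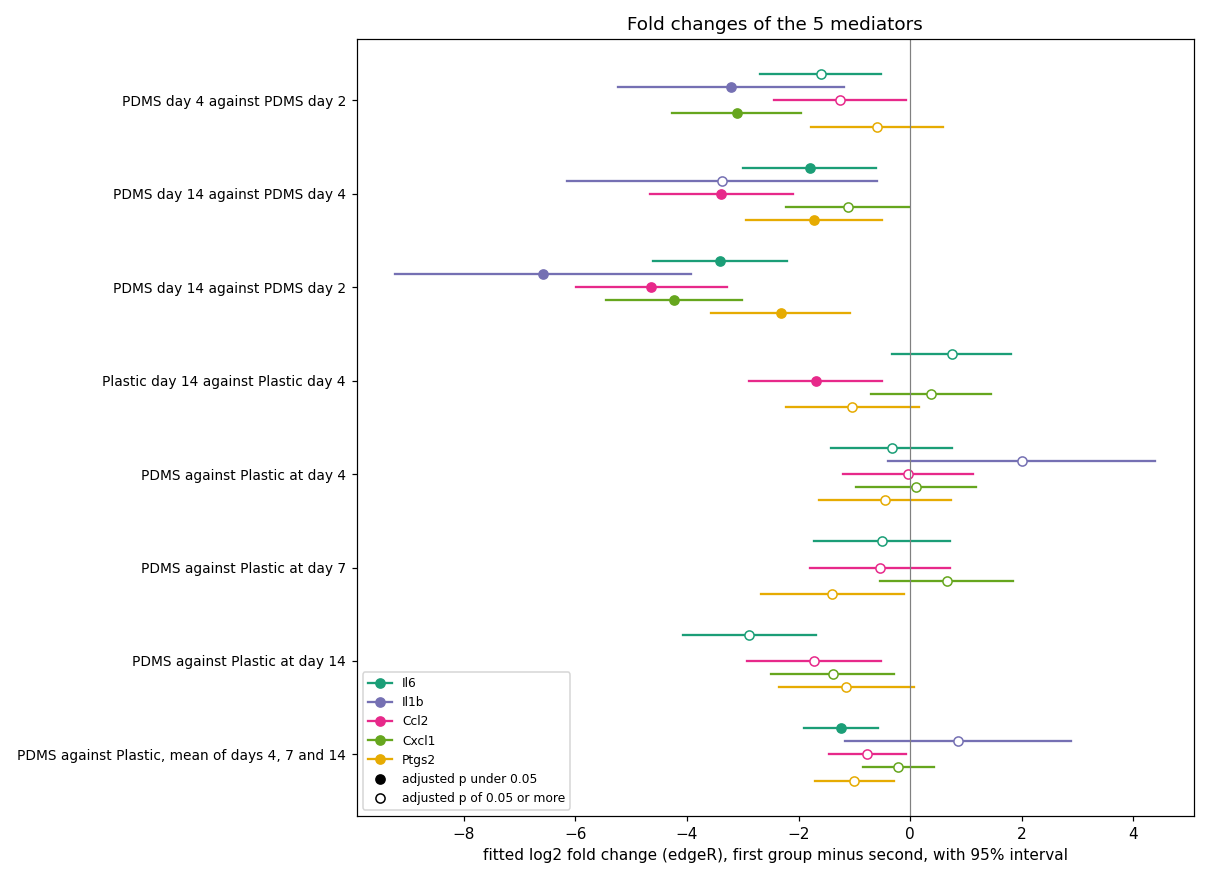
Fitted log2 fold change (x axis, first group minus second, with its 95% interval) of each gene in 8 comparisons (y axis), with filled points for an adjusted p under 0.05 and Il1b left out where both groups averaged 3 reads or fewer. All 5 points are filled for PDMS day 14 against day 2, where Il1b has the widest interval (-9.24 to -3.92), and Il6 is the filled point for PDMS against plastic over the mean of days.

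The fitted changes of the 2 chemokines were placed differently in time. Because both were read in the same libraries, the ratio of Cxcl1 to Ccl2 counts within a library does not depend on the scaling of that library. The ratio was 0.468, 0.200, 0.757 and 0.871 at PDMS day 2, 0.139, 0.109, 0.130 and 0.181 at day 4, 0.234, 0.457, 0.272 and 0.514 at day 7, and 1.03, 0.445, 0.353 and 0.986 at day 14. The day 4 libraries lay below all others on PDMS. Between days 2 and 4 the level of Cxcl1 thus dropped more than that of Ccl2, and after day 4 the level of Ccl2 dropped more.

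On plastic the ratio was 0.106, 0.0959, 0.128 and 0.158 at day 4, 0.109, 0.408 and 0.165 at day 7, and 0.328, 0.590, 0.552 and 0.468 at day 14. Here too the day 14 libraries lay above those of day 4. The difference in mean log2 ratio was -1.86 for PDMS day 4 against day 2, 1.35 for PDMS day 7 against day 4, 2.20 for PDMS day 14 against day 4 and 1.98 for Plastic day 14 against day 4. The groups did not overlap in these 4 comparisons. PDMS day 14 against day 7 differed by 0.85 and PDMS against plastic at day 14 by 0.42, with overlap in both. The ratio was chosen after the values of both genes had been seen, so it is a description and was given no test.

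**Figure D3:**
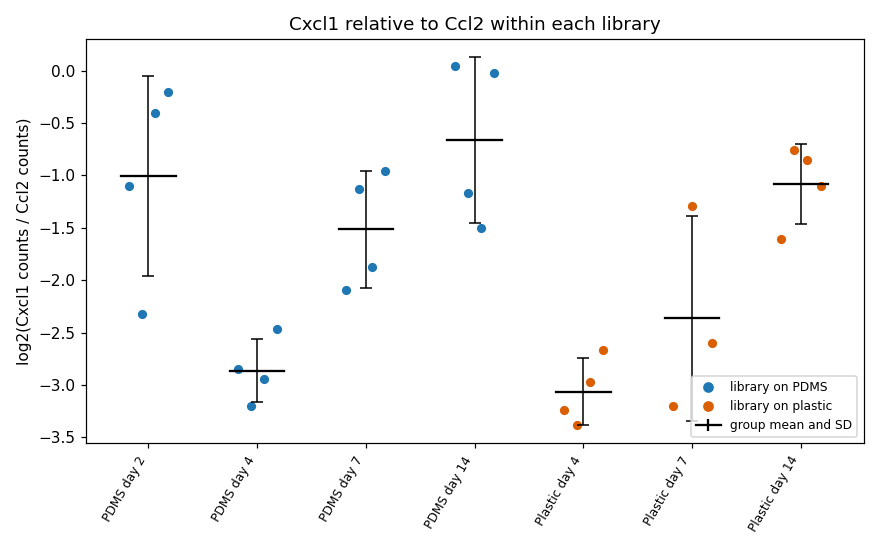
Log2 of the ratio of Cxcl1 to Ccl2 counts (y axis) in each library (points, blue for PDMS and orange for plastic) by group (x axis), with the group mean and SD in black. On both substrates the day 4 libraries are low (0.0959 to 0.181 before taking the log) and the day 14 libraries are higher (0.328 to 1.03).

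Libraries of a group that were high for one mediator tended to be high for others. After subtraction of each group's mean from log2 CPM, the correlation over the 27 libraries was 0.75 for Ccl2 with Ptgs2, 0.74 for Ccl2 with Cxcl1, 0.68 for Il6 with Ccl2, 0.62 for Il6 with Cxcl1, 0.58 for Cxcl1 with Ptgs2 and 0.55 for Il6 with Ptgs2. Il1b stood apart, with -0.23 to 0.17 against the other 4, and its counts were near 0 in most libraries. Members share each library's preparation, depth and scaling, so these values are descriptions.

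Without the 4 libraries that deviate alike, Ccl2 with Ptgs2 was 0.74, but Ccl2 with Cxcl1 was 0.49, Cxcl1 with Ptgs2 0.45, Il6 with Ccl2 0.43, Il6 with Ptgs2 0.30 and Il6 with Cxcl1 0.29, over 23 libraries. Plastic day 7 replicate 3 was the lowest of its group for all 5 members, and Plastic day 4 replicate 3 and Plastic day 14 replicate 4 were the lowest for Il6, Ccl2, Cxcl1 and Ptgs2. These are 3 of the 4 libraries that deviate alike over all genes. PDMS day 14 replicate 2 was the highest of its group for the same 4 members, and PDMS day 4 replicate 2 and Plastic day 7 replicate 4 were the highest for Il1b, Ccl2, Cxcl1 and Ptgs2. In Plastic day 14 replicate 4, Ccl2 stood at -2.31 and Cxcl1 at -2.32 log2 units from the mean of the group.

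**Figure D4:**
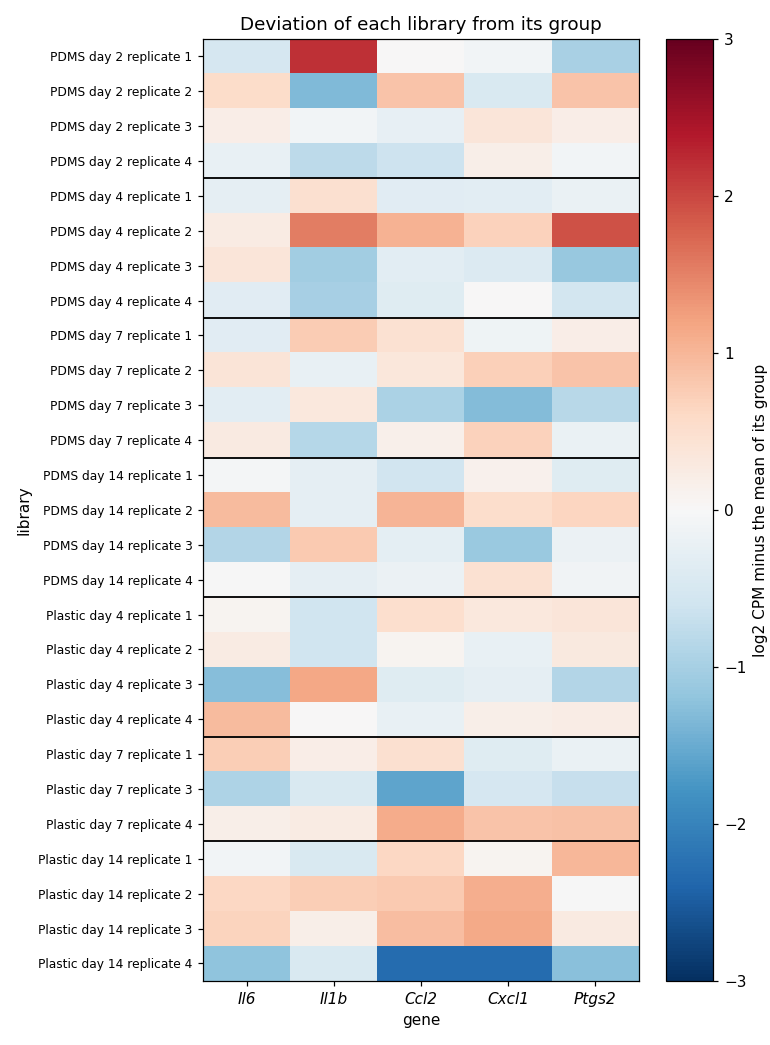
Log2 CPM of each gene (x axis) in each library (y axis, groups parted by black lines) minus the mean of its group, on a colour scale from blue (below) to red (above). Plastic day 14 replicate 4 is blue in all 5 columns, PDMS day 4 replicate 2 is red in all 5, and the column of Il1b often differs in colour from the other 4.

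Over the 27 libraries with the group differences kept, the other members ranked high among the 14257 other tested genes in likeness to Il6, by Pearson correlation of log2 CPM. Cxcl1 (r = 0.76) was the 2nd most like Il6, Ccl2 (r = 0.74) the 9th and Ptgs2 (r = 0.67) the 84th, while Il1b (r = 0.42) came 2141st. For Cxcl1 the likest member was Ccl2 (r = 0.79, 21st), and for Ptgs2 it was also Ccl2 (r = 0.81, 35th). The remaining members ranked 66th to 1103rd from Cxcl1 and 810th to 4014th from Ptgs2. Seen from Ccl2, whose course many genes shared, Ptgs2 was 359th, Cxcl1 531st, Il6 988th and Il1b 2333rd. Il1b was most like Cxcl1 among the members (r = 0.73, 305th).

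Gene IDs outside the members can be named only by number. The highest mean correlation with the 5 belonged to ENSRNOG00000028043 (mean r = 0.76), with a mean level of 148.4 CPM at PDMS day 2 and 2.54 CPM at PDMS day 14, and to ENSRNOG00000015232 (0.76), with 5.95 and 0.425 CPM. The lowest belonged to ENSRNOG00000008257 (-0.77), with 0.194 CPM at PDMS day 2 and 51.6 CPM at PDMS day 14, and to ENSRNOG00000031716 (-0.77), with 0.0238 and 1.67 CPM.

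The members also differed in what their variance followed. Over the days and substrates measured on both surfaces, day accounted for 60.5% of the variance of log2 CPM for Ccl2, against a median of 28.7% over all tested genes. For Il6, day accounted for 6.01%, substrate for 25.4% and their combination for 28.98%, where the medians over genes were 4.22% for substrate and 5.50% for the combination. Cxcl1 had most of its variance between replicates (73.6%), as did Il1b (69.4%), where the median over genes was 52.8%. PDMS day 2 is not part of this calculation. Ptgs2 was divided between day (23.9%), substrate (25.9%) and replicates (49.3%). The biological coefficient of variation between replicates was 0.452 for Il6, 1.04 for Il1b, 0.540 for Ccl2, 0.504 for Cxcl1 and 0.551 for Ptgs2, against a median of 0.243 over all tested genes. Among the 500 genes nearest in mean level, Il6 varied more than 38.8%, so it was less variable than most genes at its level. Il1b varied more than 92.8% of its 500 nearest, Ccl2 more than 94.4%, Cxcl1 more than 92.0% and Ptgs2 more than 87.8%.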

How the data were processed

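The authors deposited whole-number read counts per Ensembl rat gene ID. Per the series' design text, expression was quantified with Cufflinks, and per the submitters' processing notes STAR, FastQC and DESeq2 were also used. Program, strand setting, build and annotation behind the counts: not given in the sources used here. Overlapping, antisense or near-identical genes may therefore share reads. Of the 28 columns, 1 has no listed sample and stayed out.

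The analysis used edgeR 4.0.16 in R 4.3.3. filterByExpr (a count of about 10, a total of at least 15) left 14258 genes, which hold at least 99.94% of every library's reads. After TMM scaling, a model with a mean for each group was fitted to the 27 libraries together (20 residual degrees of freedom). Quasi-likelihood F tests (two-sided) gave p-values, adjusted by Benjamini-Hochberg over all tested genes, and an adjusted p under 0.05 is a call. CPM was computed on TMM-scaled library sizes, with a prior count of 2 before taking log2. Alternatives were library size or DESeq2 size factors as scaling, no filter, DESeq2 1.42.0, limma-voom (limma 3.58.1), a fit of the compared groups alone, the replicate block, summed alike libraries and each library left out; leaving out the 4 alike-deviating libraries was added after seeing the data.

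Same-numbered libraries deviated together (r over 0.1) in all 4 pairs for PDMS day 4 against day 2 (0.14 to 0.57). Replicates 2 and 4 of day 2 were most like their own number at day 4. Replicate 1 of day 2 was more like replicate 3 of day 4 (0.43) than replicate 1 (0.25). Replicate 3 of day 2 was more like replicate 4 of day 4 (0.41) than replicate 3 (0.24). The running numbers that open the column names go through all days and substrates of a replicate number before the next begins, in the same order each time. They do not say whether same-numbered libraries share an animal or a culture. Neither data nor labels thus establish or exclude a pairing, and the replicate block, set on all 27 libraries, is an alternative only. In no other comparison did all pairs pass, though 3 of 4 did for PDMS against plastic at day 4 (up to 0.58) and for Plastic day 14 against day 4, and 2 of 3 for Plastic day 7 against day 4 (up to 0.76).

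The members, the lists and the tests were chosen with earlier results of these data known. The rule named all 5 members and 4 other IDs by their mean correlation with them, because the RefSeq table held a symbol for 0 of the IDs. Pathway and marker lists written as symbols could not be looked up.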

Additional observations from a re-analysis of the deposited data

Results flagged for a closer look

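A library stood apart from the other 3 of its group, by Dixon's test at 95%, in 6 of the 30 combinations of gene and group of 4 that were tested. About 1.5 would be due by chance for independent, normal values. The genes share libraries and CPM may be skewed, so no excess over chance is claimed. Il1b at PDMS day 2 was 7.72 CPM in replicate 1, far above the others. Ccl2 (294.6 CPM) and Ptgs2 (55.5 CPM) were both far above the rest of PDMS day 4 in replicate 2. Ccl2 was 28.0 CPM in replicate 2 of PDMS day 14, above the others. Ptgs2 was 14.9 CPM in replicate 3 of Plastic day 4, below the others, and this library is 1 of the 4 that deviate alike. Il1b at PDMS day 14 was 0.101 CPM in replicate 3, which is 2 reads where the others had 0. The test marks such a pattern at any count above 0.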

How the results depend on the processing

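Numbers in parentheses here are all genes called by the same fit. The number of members called for PDMS day 14 against day 2 was 5 in every fit, with the limit on Il1b given above. The main fit (7358), the fit of the 2 groups alone (5337) and DESeq2 (7806) are examples. For PDMS day 4 against day 2 the main fit called 2 members (1428). The number was 3 with library size (1471), DESeq2 size factors (1508), DESeq2 (2414) and limma-voom (1225). It was 1 with no filter on low counts (1030) and with the alike plastic libraries summed (1182). In the fit of the 2 groups alone it was 0 (0), and without the 4 libraries that deviate alike it was 4 (2208). For the mean of the substrate difference the main fit called 1 member (1004). The number was 2 with DESeq2 (1539) and with the replicate block (1039). It was 0 with limma-voom (529) and with the alike libraries summed (485), and 3 without the 4 libraries (1894). For PDMS day 14 against day 4 the main fit called 3 members (4075). The number was 4 with DESeq2 (4898) and 2 with limma-voom (3890) and in the fit alone (3939). At day 14 between substrates the main fit called 0 members (0), and the number was 1 with DESeq2 (113) and without the 4 libraries (8). For PDMS day 7 against day 4 the main fit called 0 members (21). The number was 1 with DESeq2 (383), in the fit alone (428) and without the 4 libraries (308). For PDMS day 14 against day 7 it was 0 in the main fit (788) and 1 in the fit alone (1998). For Plastic day 14 against day 4 it was 1 in the main fit (4641), and 0 in the fit alone (2519) and with the alike libraries summed (2375). With each library left out in turn the members called ran from 1 to 3 for PDMS day 4 against day 2, 0 to 2 for the mean of days and 1 to 4 for PDMS day 14 against day 4. They ran from 0 to 1 at day 14 between substrates and from 0 to 1 for Plastic day 14 against day 4. Genes called moved as well: fits that called 1 member for PDMS day 4 against day 2 called 56 to 489 genes. The causes were not tested. The replicate block changed the number of members called in no other comparison.

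Signs turned only in changes that were not called. Ccl2 between substrates at day 4 (-0.04) was 0.0246 with library size as scaling, 0.0656 with the alike libraries summed, and -0.53 to 0.17 with libraries left out (0.12, 0.09, 0.10 and 0.17 where it turned). Cxcl1 on plastic from day 4 to day 14 was -0.11 with limma-voom. With libraries left out, Cxcl1 between substrates at day 4 ran from -0.19 to 0.24 and Il6 from -0.62 to 0.0768, Ccl2 at day 7 from -0.99 to 0.0539, Ccl2 on plastic from day 7 to day 14 from -0.73 to 0.31 (also 0.09), and the Ptgs2 interaction from -0.98 to 0.43. With library size as scaling, the median change of all genes moved from -0.05 to -0.20 for PDMS day 14 against day 2. The direction of each difference in the ratio of Cxcl1 to Ccl2 held with each library left out. Il1b at 22 libraries under 10 reads and Il6 at 7 were limited by depth.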
